A study of Mus musculus with 13 samples.

Results

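Integrins and laminins are the receptor and ligand sides of cell attachment to basement membrane, and their RNA was compared in mouse embryonic stem cells (mESCs) with and without induced CTCF S224E. Members were chosen by symbol, as every gene of the count tables named as an integrin α or β subunit or as a laminin α, β or γ chain. Binding proteins and the integrin-like genes Itgbl1 and Itgb2l were left out. This gave 37 genes, 26 integrins and 11 laminins, of 24421 genes in each table. All 4 libraries came from 1 clone, A2, of the female hybrid line F1-2.1 (CAST/Ei x 129/Sv/Jae). It carries a doxycycline-inducible (Tet-on) transgene that co-expresses FLAG-tagged CTCF S224E and EGFP. In S224E a glutamate replaces a phosphorylated serine of CTCF, as a phosphomimetic change. The S224E_plus_dox group (+dox, 2 libraries) was grown for 6 days with 1 μg/mL doxycycline, and the S224E_minus_dox group (−dox, 2 libraries) for the same time without it. Both groups kept endogenous wild-type CTCF and grew with LIF on γ-irradiated mouse embryonic fibroblast (MEF) feeders. Cells given dox without the transgene, or with a wild-type CTCF transgene, were not analysed here. The effects of dox, of EGFP, of added CTCF and of the S224E change thus cannot be told apart.

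Each integrin is a pair of 1 α and 1 β subunit, and the α subunit largely decides which matrix protein is bound. Each laminin is a trimer of 1 α, 1 β and 1 γ chain that is assembled inside the cell and deposited as a network with nidogen, perlecan and collagen IV. Laminin trimers of the α1 and α5 chains with β1 and γ1 are known from early embryos and from mESC cultures, where integrin α6β1 is a main laminin receptor.

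Counted reads ran from 22899107 to 30206085 per library, and the members together took 37989 to 55339 of them. All 10 ES cell markers were present in each library, and 9 had a fitted value above 0. In 5 of them both +dox libraries lay above both −dox libraries, where 26.1% of all genes did so. Pou5f1, a defining pluripotency gene, was at 1148 and 1254 CPM (counts scaled to library size) with dox and at 949 and 1016 CPM without (edgeR adjusted p = 0.0872). Ctcf RNA itself, transgene reads included where they were counted, was at 327 and 329 CPM with dox and at 295 and 304 CPM without (log2 fold change 0.13 ± 0.09 SE, edgeR adjusted p = 0.475). Markers of fibroblasts, the feeder cell type, were highest in 1 library and higher with dox. The summed level of 18 such genes was 1207 CPM in +dox replicate 1, 493 in +dox replicate 2, and 353 and 377 in the −dox libraries. In 15 of the 16 that reached a mean of 1 CPM, both +dox libraries lay above both −dox libraries, where 26.1% of all genes did so. None of the 18 was at 0 in any library. In such bulk RNA, fewer cells of a type and less RNA per cell cannot be told apart. Genes of the primitive streak were low with dox, and 9 of 10 reached a mean of 1 CPM. In all 9 both +dox libraries lay below both −dox libraries, where 27.7% of all genes did so. By edgeR's test 6 of the 10 fell, where 0.519% of all genes did so.

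At least 1 read was counted for 36 of the 37 members, and 31 reached a mean of 1 CPM. Itgad, a leukocyte subunit, had 0 reads in all 4 libraries, which allows a level of up to 0.0982 to 0.133 CPM (3 reads per library, counting error only). Itga2, Itga4, Itgax, Itgb6 and Lamc3 stayed under a mean of 1 CPM, with 0 to 29 reads per library. Levels between genes were compared as CPM per kb of transcript. On that scale 10 members had a mean of at least 10, another 10 lay from 1 to 10, and 17 were below 1. The 10 highest were Lama5, Lamc1, Itgb1, Lamb1, Itga5, Itgb5, Itga6, Itga3, Lama1 and Lamb2, and they held 88.9% of the summed level of all members. The chains most abundant on the ligand side were thus α5 and α1, β1 and γ1, and on the receptor side β1, α5, β5, α6 and α3.

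**Figure D1:**
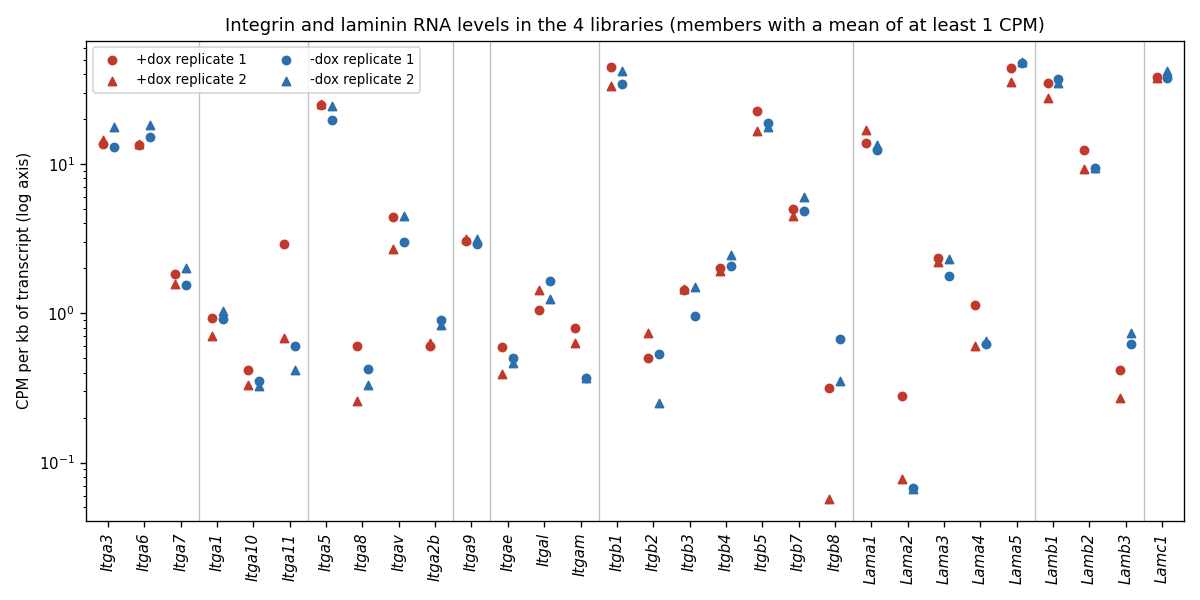
RNA level of the members reported here that averaged 1 CPM or more, in CPM per kb of transcript on a log axis, with 1 point per library (red, +dox; blue, −dox; circles, replicate 1; triangles, replicate 2). Vertical lines separate the groups by role; the red and blue points of the abundant chains lie close together, while in Itga11, Lama2 and Lama4 the red circle stands above the other 3 points.

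The genomic sequence upstream of these genes also differed between members. In the 250 bases before the annotated start, the members had a median of 12 CpG dinucleotides, against 9 over 24346 genes. The 10 members at or above 10 CPM per kb had a median of 18.5 and the 17 members below 1 had a median of 6. Over the 37 members the CpG count and the mean level had a Spearman correlation of 0.54 (Pearson r = 0.55 with log2 of the level plus 0.1). This is a description across genes of the same 4 libraries, and base composition was not taken into account. Some genes departed from it: Lamb2 was at 10.1 CPM per kb with 3 CpGs, and Lamc3 was at 0.0715 with 14. The 2 sequences shown belong to chains of the same kind that differ in both measures, with each CpG in capitals. Lama5 and Lama2 encode α chains and lie on chromosomes 2 and 10, both on the minus strand. The upstream stretches (mm9, written 5′ to 3′ on the gene's strand) are chr2:179960565-179960814 for Lama5 and chr10:27336749-27336998 for Lama2.
Lama5: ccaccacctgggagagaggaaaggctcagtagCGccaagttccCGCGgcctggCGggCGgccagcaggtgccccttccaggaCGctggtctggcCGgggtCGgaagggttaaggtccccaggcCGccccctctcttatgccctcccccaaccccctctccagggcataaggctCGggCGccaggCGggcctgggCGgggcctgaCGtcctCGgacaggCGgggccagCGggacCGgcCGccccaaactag
Lama2: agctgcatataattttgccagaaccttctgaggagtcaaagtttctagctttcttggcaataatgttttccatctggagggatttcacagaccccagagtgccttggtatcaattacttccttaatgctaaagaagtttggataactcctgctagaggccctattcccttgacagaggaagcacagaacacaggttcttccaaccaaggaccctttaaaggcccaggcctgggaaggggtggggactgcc
The Lama5 stretch holds 19 CpGs at a mean level of 43.8 CPM per kb, while Lama2, the α chain of muscle and nerve basement membranes, has 0 at 0.123 CPM per kb.

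**Figure D2:**
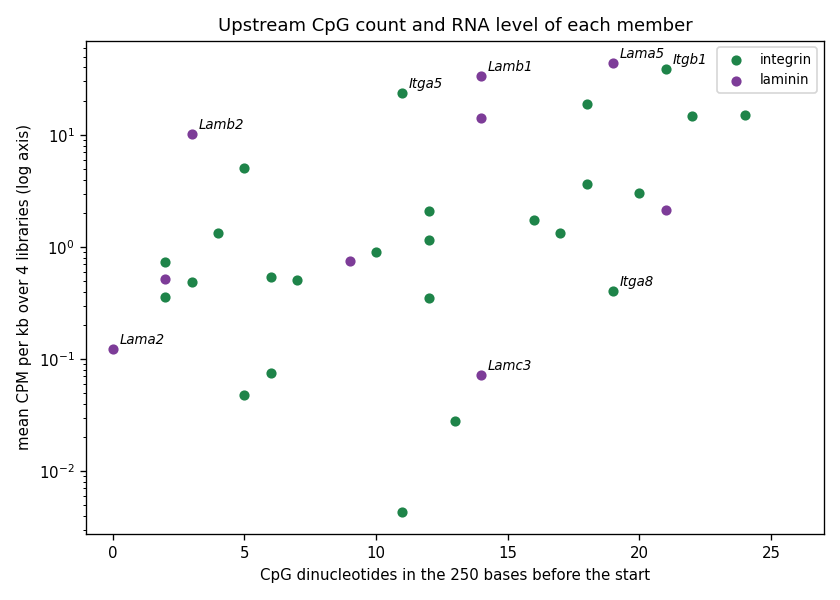
CpG dinucleotides in the 250 bases before each member's start (horizontal) against its mean level over the 4 libraries in CPM per kb (vertical, log axis), with integrins in green and laminins in purple; Itgad, at 0, and the members whose upstream sequence or values are not reported are not drawn. Itgb1 and Lama5 sit at the upper right, and Lamb2 stands high on the left side with 3 CpGs.

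The comparison of +dox with −dox asked whether induced CTCF S224E was accompanied by a change in any of these genes. No member passed edgeR's quasi-likelihood test at an adjusted p of 0.01, the threshold of the study, in either direction. Over all 20044 genes tested, 0.0798% were called higher and 0.519% lower, rates at which a list of 37 genes holds fewer than 1 call on average. DESeq2 also called 0 members, against 2.71% of the 13826 genes to which it gave an adjusted p. The lowest adjusted p among members was 0.0753 with edgeR (Itga11). At an unadjusted p under 0.05, edgeR had 9 of 36 members, 4 with a higher and 5 with a lower fitted level, where all genes had 17.8%. DESeq2 had 5 of 36 at that limit, where all genes had 13.0%.

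Of the 31 members with a mean of 1 CPM, 16 had a fitted log2 fold change above 0 and 15 below. The median was 0.03 for the 21 integrins and 0.05 for the 10 laminins, beside −0.0011 over all 13911 genes at that level. Both +dox libraries lay above both −dox libraries in 5 members, where 26.1% of all genes did so, and below them in 7, where 27.7% did so. Those above were Itga5, Itga11, Itgam, Lama1 and Lama2, and those below included Itga2b, Itga6, Itgb4, Itgb8, Lama5 and Lamb3. In the other 19 the groups overlapped. The fitted change was under 0.5 in size for 24 of the 31. Of the 36 members with a fit, 27 had a 95% interval, not adjusted for the number of genes, that spanned 0.

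**Figure D3:**
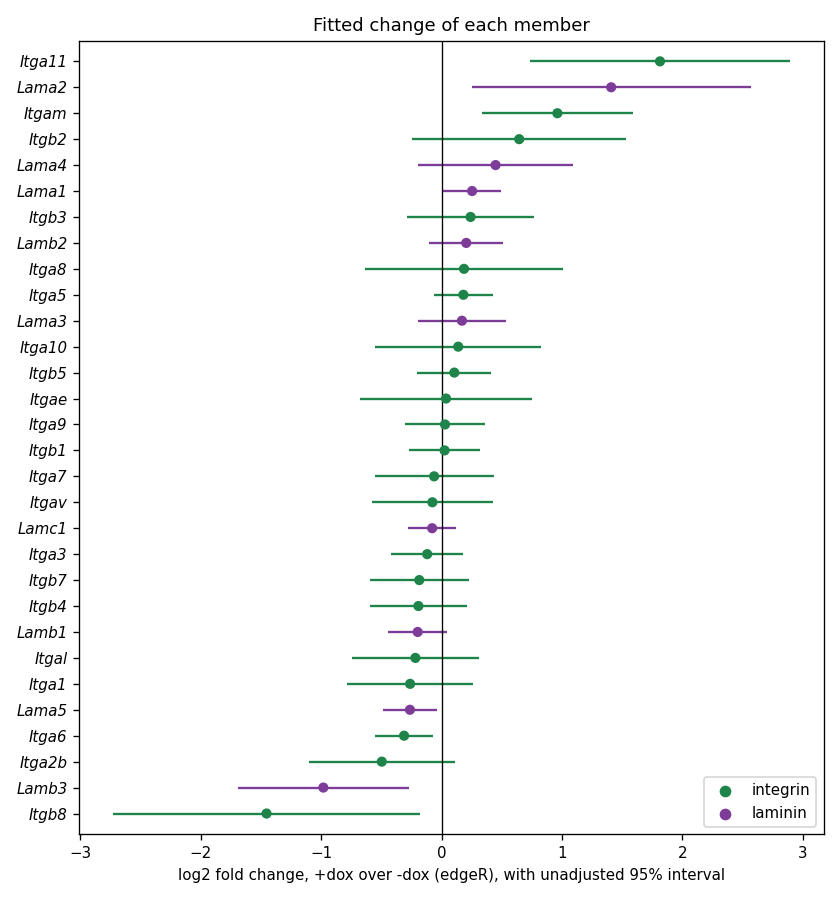
Fitted log2 fold change of +dox over −dox for the members reported here that averaged 1 CPM or more (points, edgeR) with unadjusted 95% intervals (lines), ordered by value; integrins are green and laminins purple. Itga11 is at the top at 1.81 and Itgb8 at the bottom at −1.45, both with intervals over 2 units wide, and the abundant chains cluster near 0 with short intervals.

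Among laminin α chains, Lama5 (chr2:179911078-179960564, minus strand) was the most abundant. The α5 chain is the widely used laminin α of epithelial basement membranes and of pluripotent cells. Lama5 stood at 499 and 402 CPM with dox and at 539 and 542 CPM without, so both +dox libraries were below both −dox libraries. The fitted log2 fold change was −0.26 ± 0.10 (SE; 95% interval −0.49 to −0.04) with an edgeR adjusted p of 0.2. The lowest value was that of +dox replicate 2, and without +dox replicate 1, a comparison of 1 library with 2 that takes the spread from the −dox pair, the value was −0.43 with an adjusted p of 0.00513. Without +dox replicate 2 it was −0.11 (adjusted p = 0.718). Lama1, the α chain of the earliest embryonic basement membrane, had 131 and 159 CPM with dox and 117 and 127 CPM without. Its groups did not overlap either, and here the +dox side was the higher (log2 fold change 0.25 ± 0.11 SE, edgeR adjusted p = 0.254). It was 0.39 (adjusted p = 0.0311) without +dox replicate 1 and 0.11 (adjusted p = 0.773) without +dox replicate 2. As a share of the summed per-kb level of the 5 α chains, Lama5 held 71.5% and 64.3% with dox and 76.3% and 74.5% without, and Lama1 held 22.4% and 30.5% with dox and 19.7% and 20.8% without.

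The other α chains were low. Lama3, the α chain of epidermal laminin, was between 18.1 and 24.3 CPM in all libraries, with overlapping groups (log2 fold change 0.17, edgeR adjusted p = 0.667). Lama2 was at 2.71 CPM in +dox replicate 1 and at 0.744, 0.655 and 0.638 CPM in +dox replicate 2, −dox replicate 1 and −dox replicate 2. Its fitted log2 fold change of 1.41 ± 0.53 (SE; edgeR adjusted p = 0.18) thus came from 1 library and was 0.20 without it (adjusted p = 0.893). In the fit without +dox replicate 2 it was 2.06 with an adjusted p of 0.000172. Lama4, an α chain of vessel walls and mesenchyme, was also highest in +dox replicate 1, at 6.84 CPM. The other 3 libraries lay between 3.63 and 3.91 CPM, with +dox replicate 2 the lowest, so the groups overlapped.

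Lamb1, the β chain of the common trimers, gave 202 and 160 CPM with dox and 214 and 201 CPM without. Its log2 fold change was −0.20 ± 0.11 (SE; edgeR adjusted p = 0.403). Of the summed per-kb level of the β chains, Lamb1 held 73.1% and 74.5% with dox and 78.7% and 77.5% without. Lamb2 was highest in +dox replicate 1, at 69.9 CPM against 51.5 to 52.8 in the other 3. Lamb3, the β chain of epidermal laminin, is one of the low members. It had 1.69 and 1.09 CPM with dox and 2.52 and 2.99 CPM without, from 25 to 77 reads per library. The groups did not overlap, and the fitted value was −0.98 ± 0.33 (SE; 95% interval −1.69 to −0.27; edgeR adjusted p = 0.128).

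Lamc1, the γ chain of most laminins, was the steadiest of the abundant chains. It stood at 289 and 286 CPM with dox and at 287 and 319 CPM without, which overlap (log2 fold change −0.08 ± 0.09 SE, edgeR adjusted p = 0.709). The interval of −0.27 to 0.12 is that of a fold between 0.826 and 1.09. Lamc3 had 7 to 14 reads per library.

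The laminin-binding α subunits had fitted values below 0 in all 3 cases, and none passed the test. Itga6, which forms the α6β1 laminin receptor, was the highest of them per kb in the mean of 4 libraries and in both −dox libraries, and Itga3 was the highest in both +dox libraries. Itga6 had 79.9 and 81.1 CPM with dox and 91.3 and 108 CPM without, so the 2 +dox libraries were nearly equal and both were below the −dox range. The fitted log2 fold change was −0.31 ± 0.11 (SE; 95% interval −0.55 to −0.07) with an adjusted p of 0.153 by edgeR and 0.166 by DESeq2. Leaving out any 1 library gave values from −0.43 to −0.18. Itga3, the α subunit of α3β1, another laminin receptor, was at 62.9 to 85.1 CPM with overlapping groups (log2 fold change −0.12, edgeR adjusted p = 0.709). Itga7, best known from muscle, was at 6.16 to 8.05 CPM (log2 fold change −0.06).

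The collagen-binding α subunits were low. Itga11, a collagen receptor subunit of fibroblasts, was the highest of them per kb in the mean of 4 libraries, through +dox replicate 1. In the other 3 libraries Itga1 was the highest. Itga11 was at 14.3 CPM in +dox replicate 1, 3.33 in +dox replicate 2, and 2.95 and 2.03 CPM without dox, so the groups did not overlap but 1 library stood more than 4 times above every other. The fitted log2 fold change was 1.81 ± 0.50 (SE; 95% interval 0.73 to 2.89) with an adjusted p of 0.0753 by edgeR and 0.309 by DESeq2. Without +dox replicate 1 it was 0.41 (adjusted p = 0.567), and without +dox replicate 2 it was 2.51 (adjusted p = 6.86e-20). Itga1 and Itga10 had overlapping groups, at 4.20 to 6.18 and 1.63 to 2.09 CPM. Itga1 lies beside Itga2 on chromosome 13 with a gap of 26039 bases, and Itga2 had 0 to 5 reads per library.

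Of the α subunits that bind the RGD motif of fibronectin and vitronectin, Itga5, the fibronectin receptor subunit, was by far the highest. It was also the most abundant α subunit of all, with 35.9% and 38.2% of their summed per-kb level with dox and 32.3% and 32.5% without. Itga5 gave 109 and 110 CPM with dox and 86.7 and 106 CPM without, so the groups came close without overlapping (log2 fold change 0.18 ± 0.11 SE, edgeR adjusted p = 0.45). Itgav, which pairs with several β subunits, ran from 18.9 to 31.5 CPM, with the lowest and the second highest value both in the +dox group. Itga8 and Itga2b, the platelet subunit, were at 1.49 to 3.46 and 2.04 to 3.08 CPM. Reads of Itgav and Itga8 may include those of genes on the opposite strand that share exon bases with them, as may those of Itga7, Itga4, Itgad, Itgb4 and Lamc3, because the use of strand in counting was not stated. Itga10 shares exon bases with another gene on the same strand.

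Itga9, which binds tenascin and osteopontin, was the most even member: it lay at 21.2 and 21.8 CPM with dox and at 20.4 and 21.8 CPM without (log2 fold change 0.03 ± 0.15 SE, edgeR adjusted p = 0.949). Its relative Itga4 had 9 to 29 reads per library.

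The leukocyte α subunits are encoded in part by a cluster on chromosome 7, where Itgam and Itgax lie 11076 bases apart and Itgad follows 23288 bases on. Itgal, the α subunit of LFA-1, was the highest of this class, at 5.42 and 7.44 CPM with dox and 8.51 and 6.42 CPM without, which overlap (log2 fold change −0.22 ± 0.24 SE, edgeR adjusted p = 0.709). Itgam, the α subunit of Mac-1, had 3.73 and 2.93 CPM with dox and 1.70 and 1.71 CPM without. Both +dox libraries were above both −dox libraries, from 43 to 84 reads (log2 fold change 0.96 ± 0.29 SE, 95% interval 0.33 to 1.59, edgeR adjusted p = 0.0992). Without +dox replicate 1 the value was 0.78 (adjusted p = 0.189). Itgae, a subunit of lymphocytes in epithelia, lay at 1.49 to 2.27 CPM with overlapping groups. The summed level of 10 leukocyte and platelet genes was 49.3 and 49.5 CPM with dox and 38.6 and 31.1 CPM without, and 3 of the 10 reached a mean of 1 CPM. Of these 3, only Cd68 had a fitted value above 0, and it made up most of the sum in every library. Lcp1 was at 5.17 to 8.05 CPM and Spi1 at 5.22 to 6.55 CPM, both with fitted values below 0. The pan-leukocyte gene Ptprc and Tyrobp had at most 0.0327 CPM in any library, and Gp9 was at 0 in all 4. Cd68, a lysosomal gene prominent in macrophages, was at 36.8 and 37.3 CPM with dox and 24.6 and 17.2 CPM without (edgeR adjusted p = 0.0263, DESeq2 adjusted p = 0.00165). The part of such cells in the Itgam values was not tested.

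Itgb1 (chr8:131209554-131257479, plus strand), the shared partner of most matrix-binding α subunits, held 55.4% to 59.5% of the summed per-kb level of the 8 β subunits. It was at 186 and 138 CPM with dox and at 144 and 174 CPM without, so the highest and the lowest library were both +dox. The log2 fold change was 0.03 ± 0.14 (SE; 95% interval −0.27 to 0.32; edgeR adjusted p = 0.95). Itgb5, a vitronectin receptor subunit, was at 74.1 CPM in +dox replicate 1 and at 54.3 to 61.3 in the others. Itgb7, Itgb4 and Itgb3 lay at 11.9 to 15.9, 11.5 to 14.6 and 5.50 to 8.61 CPM. Itgb4, which pairs with α6 in hemidesmosomes, was below both −dox libraries in both +dox libraries, by a log2 fold change of −0.19 (edgeR adjusted p = 0.661). Itgb8, a subunit known for activation of latent TGF-β, had 0.977 and 0.175 CPM with dox and 2.06 and 1.08 CPM without, which is 22 and 4 reads against 63 and 27. The groups did not overlap but nearly touched, and the fitted value was −1.45 ± 0.59 (SE; 95% interval −2.73 to −0.18; edgeR adjusted p = 0.209). Without +dox replicate 1, which leaves the library with 4 reads as the only +dox sample, it was −3.15 with an adjusted p of 0.000169. Without +dox replicate 2 it was −0.70 (adjusted p = 0.512). Itgb2, the partner of the leukocyte α subunits, had 18 to 48 reads with overlapping groups, and Itgb6 had at most 1.

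The members also differed between libraries of the same group. In same-numbered pairs of libraries, 7 of the 31 members were higher with dox in both pairs (22.6%, against 34.0% of all genes) and 8 were lower in both (25.8%, against 35.7%). Of the other 16, 14 were higher with dox in the pair numbered 1 and lower in the pair numbered 2, and 2 the other way round. Over the 13911 genes at that level the latter 2 counts were 1935 and 2282. The median difference between the pairs was 0.47 on the log2 scale for members and 0.19 for all genes. Within the +dox group, 21 of 31 members were higher in replicate 1 than in replicate 2 (67.7%, against 47.7% of all genes), with a median ratio of 1.24. In the −dox group, 19 of 31 were higher in replicate 2 (61.3%, against 49.8% of all genes), with a median ratio of 1.07. +dox replicate 1 was the highest of the 4 libraries in 11 of 31 members (35.5%) and in 21.0% of all genes.

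**Figure D4:**
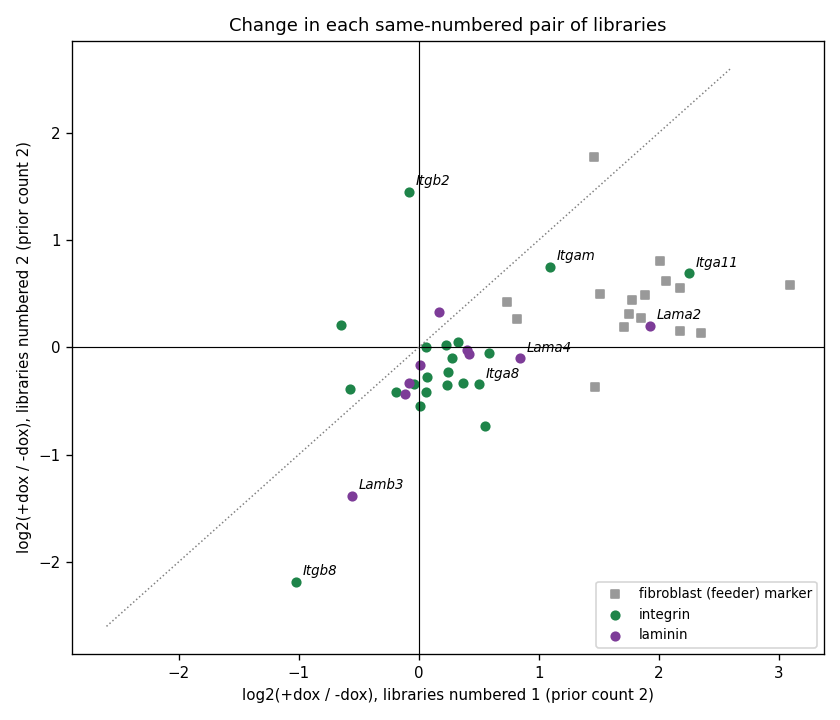
Log2 fold change of +dox over −dox in the libraries numbered 1 (horizontal) and in those numbered 2 (vertical), each with a prior count of 2, for integrins (green), laminins (purple) and fibroblast markers (grey squares) that averaged 1 CPM or more; the dotted line marks equal values. Most members lie below the line, 14 of them in the lower right quadrant, and Itga11 and Lama2 lie among the fibroblast markers at the right.

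The fibroblast markers also differed between the +dox libraries. All 16 that reached a mean of 1 CPM were higher in +dox replicate 1 than in +dox replicate 2, with a median ratio of 2.71. In the −dox group 8 of the 16 were higher in replicate 2, with a median ratio of 0.966 to replicate 1. All 16 had a fitted value above 0 (median log2 fold change 1.34). None of the 18 was called by edgeR or DESeq2, and 15 had an edgeR p under 0.05 before adjustment. Col1a1, the main fibroblast collagen gene, was at 247 and 94.9 CPM with dox and at 66.6 and 67.7 CPM without. The part of fibroblast RNA in the values of Itga11, Lama2, Lama4, Itga8, Lamb2, Itgam and Itgb5, the members highest in this library by the largest ratios, was not tested. By edgeR, 6 of 10 primitive streak genes and 4 of 14 endoderm genes fell with dox, where 0.519% of all genes did so. Of the 12 endoderm genes at a mean of 1 CPM, 7 had fitted values below 0 and 5 above. Both +dox libraries lay below both −dox libraries in 7 of the 12 and above them in 2 (27.7% and 26.1% of all genes). The relation of these 2 lists to the lower fitted values of Itgb8 and Lamb3 was not tested.

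Partner genes were taken from 3 lists of 54 genes in all. The first list held 28 integrin activators and adhesion adaptors, some of which link the β subunit tail to actin. By edgeR 0 of the 28 were called in either direction and 5 had an unadjusted p under 0.05, where all genes had 17.8%. DESeq2 called 1, against 2.71% of all genes to which it gave an adjusted p. Kank1, which organises microtubules around adhesions, was that gene: it had 40.1 and 36.3 CPM with dox and 56.9 and 61.9 CPM without (log2 fold change −0.64 ± 0.12 SE, adjusted p = 0.0197 by edgeR and 0.000829 by DESeq2). It is named because DESeq2 called it. Actn4, an actin crosslinker and the highest of this list per kb, was at 944 and 907 CPM with dox and 765 and 779 CPM without (edgeR adjusted p = 0.102). Its 28 genes had a median fitted value of −0.0065 on the log2 scale.

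Of 20 basement membrane and matrix ligand genes, 1 rose, 0 fell, and 16 reached a mean of 1 CPM. Spp1, which encodes osteopontin, a ligand of RGD-binding and α9 integrins, was also the highest of this list per kb. It rose from 245 and 288 CPM to 412 and 402 CPM (log2 fold change 0.61 ± 0.10 SE, edgeR adjusted p = 0.00667), and both +dox libraries were above both −dox libraries. Of the 16, 13 had fitted values above 0 (median 0.46), but 8 of these 13 were higher with dox in the pair numbered 1 and lower in the pair numbered 2. Fn1, which encodes fibronectin, was 2326 and 1357 CPM with dox and 1238 and 1472 CPM without. Nid2 and Hspg2, the nidogen and perlecan partners of laminin, were at 489 to 530 and 497 to 662 CPM with overlapping groups.

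Of 6 other laminin receptor genes, 1 rose and 0 fell. Sdc4, a heparan sulfate proteoglycan of focal adhesions, was at 148 and 157 CPM with dox and at 95.1 and 97.2 CPM without. Its +dox and −dox libraries were far apart relative to the gaps within each group (log2 fold change 0.66 ± 0.10 SE, edgeR adjusted p = 0.00386). Dag1, which encodes dystroglycan, was at 211 and 212 CPM with dox and 217 and 248 CPM without (edgeR adjusted p = 0.517). Rpsa, a ribosomal protein gene also named the laminin receptor and the highest of this list per kb, was at 135 and 160 CPM with dox and 127 and 110 CPM without (edgeR adjusted p = 0.158). Spp1 and Sdc4 were the only genes of the 54 called by edgeR, 2 of 54 beside the shares of all genes given above. Without +dox replicate 2 the count of called partners was 14, and it was 0 without either −dox library.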

How the data were processed

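Poly(A) RNA was sequenced from 4 libraries (50-nt paired end). The authors used cutadapt for trimming and TopHat2 for alignment to mm9, took out PCR duplicates, and deposited raw counts of unique exon reads per gene from HOMER, with 1 table per replicate number. Tool versions and the use of strand are not given in the sources used here. Removal of duplicates can lower the counts of abundant genes.

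Here the tables were joined by symbol, and genes with at least 1 count in 1 library were tested with edgeR 4.0.16 (R 4.3.3; TMM, quasi-likelihood, default settings, no replicate block), with Benjamini-Hochberg adjustment over all 20044 genes and a threshold of 0.01. DESeq2 1.42.0 was the alternative. CPM values use TMM library sizes. Per-kb levels divide by the transcript length in the tables. Errors are SE from the test statistic with n = 2 libraries per group. The p-values measure the spread between libraries of 1 clone. Upstream sequences were read from NCBIM37 (mm9). Members named with values in every library are the highest per kb of each role and the 3 largest and 3 smallest log2 fold changes at a mean of 1 CPM or more. The members and gene lists were chosen with earlier results of these data known, and the choice of edgeR's default settings was made with their results known. The test was checked on simulated data with 200 changed genes per run. There edgeR called 16.5% of the genes changed by 0.5 on the log2 scale, 54.5% of those changed by 1 and 99.5% of those changed by 2. A count of 0 calls thus does not exclude changes of 0.5 or of 1 on the log2 scale. Some values and sequences of members are not reported here.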

Additional observations from a re-analysis of the deposited data

How the results depend on the processing

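With 2 libraries per group, the counts of calls depended on which libraries and settings were used. The count of members called was 0 under DESeq2, the likelihood ratio test, adjusted deviances, both other scalings, both other filters and a threshold of 0.05. It was 1 (Itga11, adjusted p = 0.00101) with the replicate number as a block, and 0 to 3 when 1 library was left out (Itgb8 and Lama5 without +dox replicate 1; Itga11 and Lama2 among those without +dox replicate 2). These fits take the spread from the other group alone and assume that the lone library varies like it. The correlation of deviations between same-numbered libraries was 0.196 over 2 pairs, which does not show that the numbers pair the samples. Of the 18 fibroblast markers, 0 were called, 13 with the replicate block and 3 with the likelihood ratio test. All-gene calls numbered 120. They were 375 with DESeq2, 457 with the likelihood ratio test, 0 with adjusted deviances (3254 at an unadjusted p under 0.05), 786 with the replicate block, 11 with filterByExpr, 573 at a threshold of 0.05, and 0 to 992 with 1 library left out. Called partners numbered 2, and were 4 with the likelihood ratio test, 0 with adjusted deviances (10 at an unadjusted p under 0.05), 5 with the block, 1 with scaling to total counts, 0 with filterByExpr (12 at an unadjusted p under 0.05), 4 at a threshold of 0.05, and 0 to 14 with 1 library left out. Both −dox libraries were needed for any edgeR call among all genes: without either, 0 were called (1753 and 1450 at an unadjusted p under 0.05). The medians of integrins and laminins ran from −0.17 to 0.17 and from −0.08 to 0.17 under the alternatives run, and changed sign under some of them. All stayed within the SD between replicates of the main median, which was 0.36 for integrins and 0.15 for laminins. That SD was larger than the main medians themselves, so staying within it does not show that they were stable. Of the 31 members at a mean of 1 CPM, 15 changed sign when some library was left out, and Itga9, Itgae and Itgb1 changed sign when scaled to total counts.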
